A study of Mus musculus with 10 samples.

Results

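The 8 genes described here encode transcription factors that set the identity of pancreas and gut epithelium: Sox9, Hnf4a, Pdx1, Foxa1, Foxa2, Gata4, Gata6 and Onecut1. They were chosen by gene symbol and are 8 of the 23924 usable symbols in the expression tables. The tissue was mouse pancreatic tumour grown in the pancreas of athymic nude mice, a strain without a thymus, in 2 models named KrasT and MycT. Untreated KrasT tumours (n = 3) and untreated MycT tumours (n = 2) had 0 days of doxycycline. Treated KrasT tumours (n = 3) and treated MycT tumours (n = 2) came from hosts whose drinking water held 100 ug/ml doxycycline and 2.5% sucrose over 2 weeks, given as 14 days in the sample labels. Doxycycline acts on transgenes built with tetracycline-responsive elements, and the series title speaks of tumour cell dormancy without the oncogenic driver. All 4 groups are transplants in the same host strain. The labels give no animal ages, no promoter or cell type for the transgenes, and no sucrose for the untreated hosts, so effects of doxycycline, of sucrose and of the transgene cannot be told apart.

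In the embryo, FOXA proteins open chromatin in the endoderm, the inner germ layer, and GATA4, GATA6, HNF4A, ONECUT1, SOX9 and PDX1 then mark out liver, gut and pancreas. In the adult pancreas, PDX1 is highest in beta cells, SOX9 and ONECUT1 mark duct cells, and HNF4A and GATA6 are present in several epithelial cell types. In pancreatic cancer, GATA6, HNF4A, PDX1, FOXA1 and FOXA2 are widely used as markers of tumours that keep a glandular, gut-like state.

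Expression was given as FPKM, fragments scaled to transcript length and library size, so levels can be compared between genes. Changes are differences in log2(FPKM + 1) between treated and untreated tumours, tested with limma over all genes with at least 1 FPKM in at least 3 KrasT or 2 MycT libraries. Calls were made at an adjusted p (Benjamini-Hochberg) under 0.05. Read depth is unknown. Total FPKM ran from 789672 to 1517332 in untreated libraries and from 513949 to 569272 in treated ones, and the ribosomal RNA gene Rn45s reached 17240 FPKM in treated KrasT replicate 1 and 20880 in treated MycT replicate 2, against at most 2231 in the others. Untreated KrasT replicate 1 stood apart, correlating with the other two at a Pearson r of 0.911 and 0.919, against 0.982 between them. It was also low in the epithelial markers of the labelled tissue: E-cadherin (Cdh1) was at 4.67 FPKM against 370.1 and 291.0, and the sum of 12 epithelial markers was 2360 against 18670 and 9523. The unnumbered untreated MycT library, whose column name gave its group but no matching animal number, correlated with untreated MycT replicate 2 at 0.925. The changes nearest to a call are also given without these libraries.

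None of the 8 factors passed the test in either model. Of the 7 that reached the level needed for testing (all but Onecut1), 0 were called in KrasT, where 16.7% of 12696 tested genes were called, and 0 in MycT, where 0.039% of 12834 were called. At an unadjusted limma p under 0.05 there was 1 factor in KrasT (Foxa2) and there were 2 in MycT (Sox9 and Gata6). All 7 estimates were negative in KrasT, with a median log2 change of -0.54, beside a median of -0.10 over all tested genes. In MycT, 5 were positive and 2 negative, with a median of 0.48 beside 0.04 over all tested genes. The test of the difference between the models called 0 of 7, beside 0.24% of 12073 genes, and 3 of the 7 (Sox9, Foxa2 and Gata6) had an unadjusted p under 0.05. Treated and untreated libraries were fully separated for 2 of the 8 factors in KrasT (Foxa2 lower, Onecut1 higher) and for 4 of 8 in MycT (Sox9, Gata6 and Onecut1 higher, Foxa1 lower). Among all tested genes this separation held for 39.8% in KrasT (16.8% higher, 23.0% lower) and 64.7% in MycT (31.9% higher, 32.8% lower), and among the 7 tested factors for 1 and 3.

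**Figure D1:**
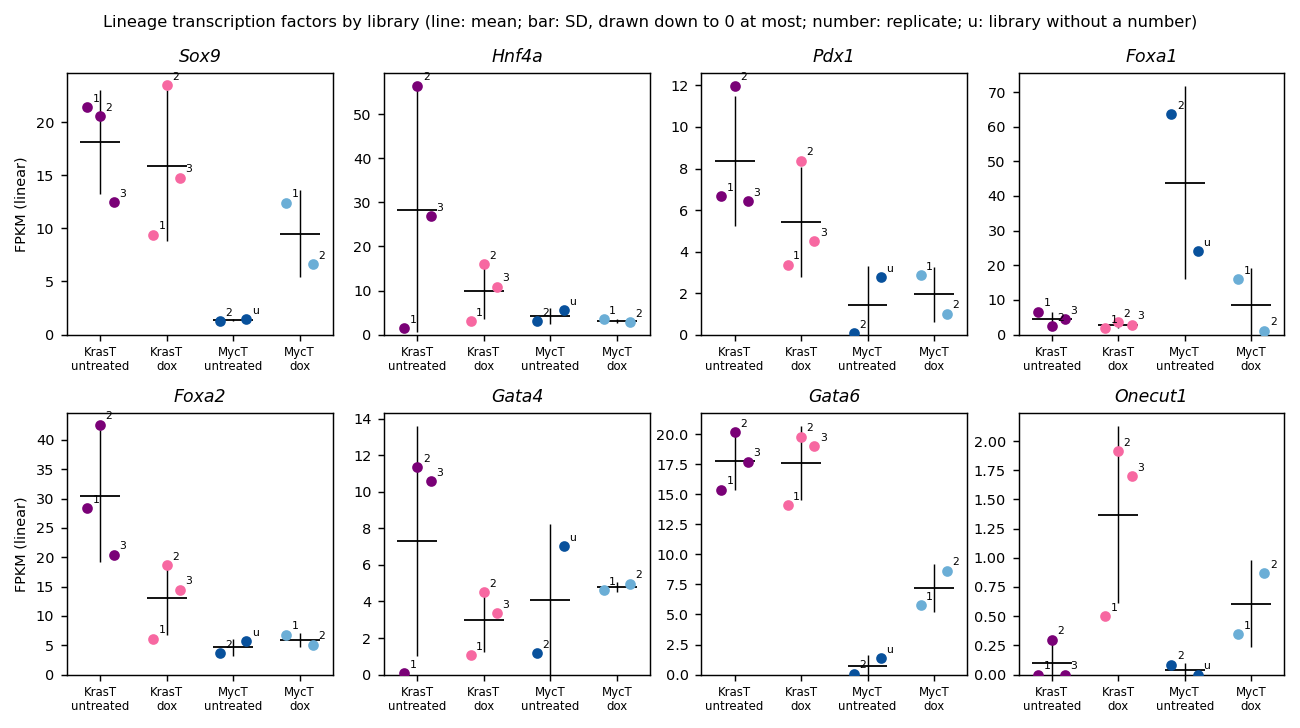
FPKM of each of the 8 factors on linear axes in the 10 libraries, by group; each point is a library numbered by replicate, u is the untreated MycT library without a number, and the lines are the group mean and its SD. Sox9 and Gata6 are at the bottom only in untreated MycT tumours, and untreated KrasT replicate 1 lies far below its group for Hnf4a and Gata4.

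Foxa1 and Foxa2 encode the pioneer factors of the endoderm, closely related proteins that bind the same DNA element. Their promoters are shown because Foxa2 was the higher of the pair in all 6 KrasT tumours and Foxa1 in 3 of 4 MycT tumours. Sequences are RefSeq windows of the GRCm38.p6 build, 250 bases before to 50 after a transcription start, on the gene's strand. Capitals mark exact matches, on either strand, to the FOXA element TGTTTAC, the SOX element ACAAAG, the GATA element AGATAA, the ONECUT element ATCAAT, the homeodomain element TAATTA, the E-box CACGTG or the HNF4 element CAAAGTCCA. The Foxa1 window is at chr12:57546062-57546361 on the minus strand. Of the 3 Foxa2 starts, the one with most matches is shown, at chr2:148045415-148045714 on the minus strand.
Foxa1: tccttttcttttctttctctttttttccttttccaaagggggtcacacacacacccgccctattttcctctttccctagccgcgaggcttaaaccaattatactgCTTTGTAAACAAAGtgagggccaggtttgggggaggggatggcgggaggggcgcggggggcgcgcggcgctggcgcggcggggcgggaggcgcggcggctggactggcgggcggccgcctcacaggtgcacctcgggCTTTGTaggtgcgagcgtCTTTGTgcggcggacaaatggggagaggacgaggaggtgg
Foxa2: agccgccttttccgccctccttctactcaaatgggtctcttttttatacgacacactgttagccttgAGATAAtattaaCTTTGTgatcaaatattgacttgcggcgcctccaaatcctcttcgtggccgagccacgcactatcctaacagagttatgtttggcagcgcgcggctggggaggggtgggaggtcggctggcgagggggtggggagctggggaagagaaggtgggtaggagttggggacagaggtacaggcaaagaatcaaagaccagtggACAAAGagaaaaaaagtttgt
The Foxa1 window held 1 FOXA match on the minus strand, at bases 110 to 116 counted from its 5′ end. That match overlaps SOX matches at bases 106 to 111 and 114 to 119, so the FOXA letters lie between SOX letters on opposite strands. Further SOX matches lay at bases 243 to 248 and 261 to 266. The Foxa2 window held a GATA match at bases 68 to 73 and SOX matches at bases 80 to 85 and 280 to 285. Among 32851 promoter windows of this length, 3.65% held the FOXA element, 18.7% the SOX element and 11.2% the GATA element. A match describes letters in these windows and was not tied to binding.

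Foxa2 was the higher of this pair in every KrasT tumour and was the factor nearest to a change there. It was at 28.4, 42.6 and 20.4 FPKM in untreated KrasT replicates 1 to 3 and at 6.12, 18.6 and 14.5 in treated replicates 1 to 3. Every treated tumour was below every untreated one, with group means of 30.5 ± 11.2 and 13.1 ± 6.37 FPKM (SD, n = 3 each). The log2 change was -1.22 (SE 0.455), which did not pass the limma test (adjusted p = 0.111, range over the alternatives 0.0661 to 0.998). It was -1.24 without untreated replicate 1 (limma adjusted p = 0.11) and -0.79 without treated replicate 1, the KrasT library high in Rn45s (0.233). In MycT, Foxa2 was at 3.60 and 5.65 FPKM untreated and 6.76 and 5.11 treated. These groups overlapped, and the log2 change was 0.32 (limma adjusted p = 0.597). The difference between models was -1.54 (SE 0.667), with limma giving an adjusted p of 0.243.

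Foxa1 had the opposite distribution. Untreated MycT tumours held 63.6 FPKM in replicate 2 and 24.1 in the unnumbered library, and the treated ones 16.0 and 1.12. In KrasT it was at 6.62, 2.39 and 4.40 FPKM untreated and 1.88, 3.53 and 2.88 treated. The 2 treated MycT tumours lay below both untreated ones but differed from each other by more than either group of KrasT tumours did. The log2 change in MycT was -2.74 (SE 1.11, 95% interval -5.66 to 0.17), with a limma adjusted p of 0.167. It was -1.24 without treated replicate 2, the MycT library high in Rn45s, -4.25 without treated replicate 1, -2.06 without untreated replicate 2 and -3.43 without the unnumbered library (limma adjusted p 0.17 to 0.464). In KrasT the groups overlapped and the log2 change was -0.49 (limma adjusted p = 0.397). Foxa1 made up 5.31% to 23.5% of the summed Foxa1 and Foxa2 FPKM in the 6 KrasT tumours, 94.6% and 81.0% in untreated MycT tumours, and 70.3% and 18.0% in treated MycT replicates 1 and 2. Foxa1 was therefore the main FOXA transcript in 3 of the 4 MycT tumours and in 0 of the 6 KrasT tumours. No common normalisation of the 2 tables is stated, so levels across models are set side by side without a test. The shares given here are ratios within a library.

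**Figure D2:**
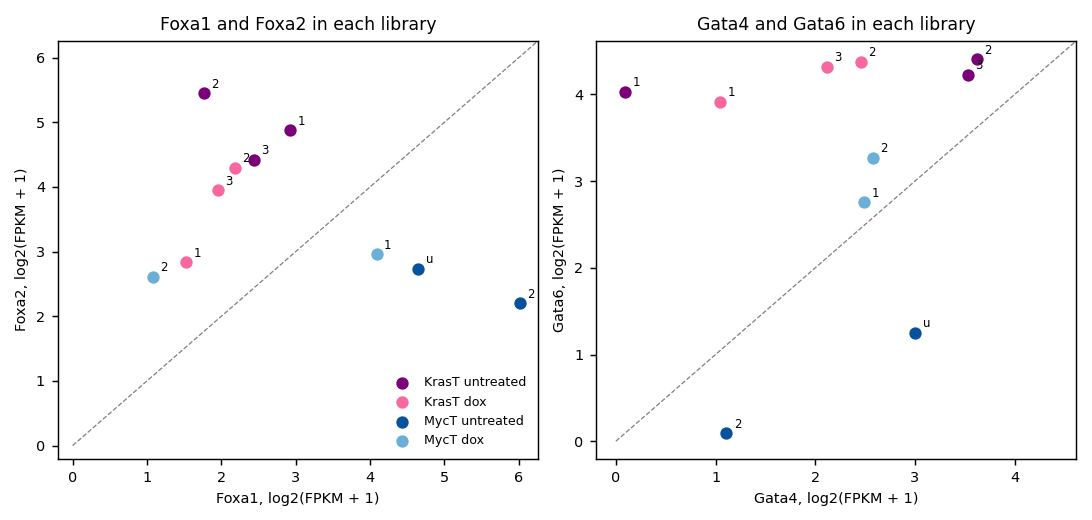
Left, Foxa1 (horizontal) against Foxa2, and right, Gata4 (horizontal) against Gata6, as log2(FPKM + 1) in the 10 tumours, with the diagonal of equal levels dashed; numbers are replicates and u is the unnumbered library. KrasT tumours lie on the Foxa2 and Gata6 side, and untreated MycT tumours lie on the Foxa1 and Gata4 side.

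Gata4 and Gata6 encode zinc finger factors that act in part redundantly in the pancreas progenitor. Gata6 was steady in KrasT, at 15.4, 20.2 and 17.7 FPKM untreated and 14.1, 19.8 and 19.0 treated. Its log2 change of -0.01 (SE 0.251) had a 95% interval of -0.61 to 0.58 and a limma adjusted p of 0.976. In MycT it was at 0.0674 FPKM in untreated replicate 2 and 1.38 in the unnumbered library, and at 5.77 and 8.64 in treated replicates 1 and 2. Both treated MycT tumours were above both untreated ones, yet below every KrasT tumour. The log2 change was 2.34 (SE 0.522, 95% interval 0.98 to 3.71) and did not pass within the MycT table (limma adjusted p = 0.0747). With the spread estimated jointly over all 10 libraries, the same change passed (limma adjusted p = 0.00835), and over all alternatives the adjusted p ran from 0.00835 to 0.925. The change was 2.92 without the unnumbered untreated library (limma adjusted p = 0.059) and 2.09 without treated replicate 2 (0.301). The difference between models was -2.36 (SE 0.532), for which limma gave an adjusted p of 0.0714 (range over the alternatives 0.0212 to 0.841). It passed without untreated KrasT replicate 1 (-2.45, limma adjusted p = 0.0294) and with library weights (limma adjusted p = 0.0212). These 2 fits called 1522 and 1475 of 12073 genes, against 29 in the main fit. Without the unnumbered untreated MycT library the difference was -2.93. That fit rests on a lone untreated MycT library, so its p-value is not given and it is not counted here as passing or failing.

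Gata4 differed widely among the untreated tumours of each model. In untreated KrasT it was at 0.0657 FPKM in replicate 1 and at 11.3 and 10.6 in replicates 2 and 3, and in treated KrasT at 1.07, 4.49 and 3.34. The groups overlapped only through replicate 1, and the log2 change was -0.54 (SE 0.969, limma adjusted p = 0.731). Without that library the estimate was -1.70 and passed the test (limma adjusted p = 0.0302, range over the alternatives 0.0302 to 0.995). In that fit 4223 of 12696 genes were called. In MycT, Gata4 was at 1.16 FPKM in untreated replicate 2, 7.02 in the unnumbered library, and 4.62 and 4.98 in the treated tumours, which lay between them. Its log2 change there was 0.48 (limma adjusted p = 0.665). Gata4 made up 94.5% and 83.6% of the summed Gata4 and Gata6 FPKM in untreated MycT tumours, 44.4% and 36.6% in treated ones, and 0.426% to 37.3% in KrasT tumours. The GATA pair thus had a larger Gata4 share in both untreated MycT tumours than in the other 8 tumours.

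Hnf4a encodes a nuclear receptor that maintains liver and intestinal epithelium, and is transcribed from an upstream promoter used in pancreas and a downstream one used in liver. FPKM values per gene do not separate them. Both windows are shown because they differ in the factors whose elements they hold. The upstream window is at chr2:163506607-163506906 and the downstream one at chr2:163546905-163547204, both on the plus strand of GRCm38.p6 (RefSeq).
Hnf4a upstream: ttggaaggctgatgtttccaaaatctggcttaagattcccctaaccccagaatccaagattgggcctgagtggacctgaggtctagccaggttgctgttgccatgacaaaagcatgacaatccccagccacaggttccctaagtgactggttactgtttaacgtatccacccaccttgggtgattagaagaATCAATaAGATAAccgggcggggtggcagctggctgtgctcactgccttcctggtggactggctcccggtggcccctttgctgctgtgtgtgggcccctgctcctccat
Hnf4a downstream: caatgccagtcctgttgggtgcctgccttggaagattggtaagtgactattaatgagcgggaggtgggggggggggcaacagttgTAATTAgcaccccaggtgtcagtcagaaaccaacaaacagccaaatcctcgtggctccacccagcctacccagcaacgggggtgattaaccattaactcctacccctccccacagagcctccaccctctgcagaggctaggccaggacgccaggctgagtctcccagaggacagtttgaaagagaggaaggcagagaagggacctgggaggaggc
The upstream window held the ONECUT element at bases 192 to 197 and the GATA element at bases 199 to 204, which do not overlap. The downstream window held the homeodomain element TAATTA at bases 86 to 91. The ONECUT element occurred in 7.54% of all windows and TAATTA in 5.29%.

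Hnf4a had the widest range in KrasT. It was at 1.44, 56.5 and 26.8 FPKM in untreated replicates 1 to 3 and at 3.10, 16.0 and 10.8 in treated ones. The lowest library of all 6 was untreated replicate 1, so the groups overlapped, and the log2 change was -0.75 (SE 1.17, 95% interval -3.52 to 2.03, limma adjusted p = 0.692). Leaving that library out gave -2.09 with a limma adjusted p at the threshold (0.05, range over the alternatives 0.05 to 0.956). In MycT it was low throughout, at 3.003 and 5.49 FPKM untreated and 3.45 and 2.81 treated, with a log2 change of -0.31 (limma adjusted p = 0.624). Hnf4a and Gata4 followed each other over the 6 KrasT libraries, with a Pearson r of 0.981 on the log2 scale. This was the highest KrasT r of all pairs of the factors, and over all 10 libraries their r was 0.765. Over the 6 KrasT libraries villin (Vil1), an actin-bundling protein of gut microvilli, had an r of 0.994 with Hnf4a. Cdh1 had an r of 0.987 with Gata4 there. Both genes were picked from 8716 candidates for the highest r over all 10 libraries, so a high r follows from the choice. The sum of 12 epithelial markers ranked the libraries otherwise. It was 2360 in untreated replicate 1, the lowest library for both factors, against 294.4, 1783 and 1535 in treated replicates 1 to 3. These correlations describe 6 tumours that share library and tissue makeup. In whole tissue, fewer epithelial cells and less RNA per cell cannot be told apart.

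Onecut1, which encodes the ONECUT factor of duct and liver development, was close to the limit of detection. Untreated KrasT tumours listed it at 0, 0.297 and 0 FPKM and untreated MycT tumours at 0.0832 and 0. Treated KrasT tumours had 0.500, 1.91 and 1.70 FPKM and treated MycT tumours 0.343 and 0.870. Every treated tumour was above every untreated tumour of its model, but the gene did not reach the level for testing and no fold is given. Acinar marker sums were 360.9, 144.5 and 17460 FPKM in the treated KrasT tumours and 25.98 to 395.6 in the untreated ones, and islet marker sums were 7529, 44.5 and 2542 against 0.311 to 70.7. Treated KrasT replicate 2 had the lowest sum of both lists among the treated KrasT tumours and the highest Onecut1. MycT went the other way. Treated MycT replicate 2 had higher acinar (1731 against 123.9) and islet sums (694.4 against 22.1) than replicate 1, and the higher Onecut1. The part of these cells in Onecut1 was not tested.

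Pdx1 encodes the homeodomain factor of the pancreatic bud and the beta cell. Its promoter is shown because the E-box in it is the only match found. The window lies at chr5:147269847-147270146 on the plus strand (RefSeq, GRCm38.p6), with the E-box at bases 200 to 205, an element that 7.15% of all windows held.
Pdx1: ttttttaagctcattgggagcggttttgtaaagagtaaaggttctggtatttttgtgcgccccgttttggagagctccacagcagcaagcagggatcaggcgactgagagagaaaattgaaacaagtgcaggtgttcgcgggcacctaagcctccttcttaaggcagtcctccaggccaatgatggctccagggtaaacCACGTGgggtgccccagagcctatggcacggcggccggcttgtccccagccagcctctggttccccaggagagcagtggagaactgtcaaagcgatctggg
Pdx1 was at 6.67, 12.0 and 6.42 FPKM in untreated KrasT tumours and at 3.36, 8.38 and 4.51 in treated ones. The groups overlapped, and the log2 change was -0.57 (SE 0.392, limma adjusted p = 0.348). In MycT the untreated libraries differed from each other, at 0.0624 FPKM in replicate 2 and 2.76 in the unnumbered one, and spanned most of the range of the treated ones at 2.87 and 1.004. The log2 change was 0.48 (limma adjusted p = 0.686). Across the 6 KrasT libraries Pdx1 followed Foxa2 with an r of 0.904, the highest of the factor pairs there after Hnf4a with Gata4. The insulin genes Ins1 and Ins2, which PDX1 activates in beta cells, had log2 changes of 4.81 (limma adjusted p = 0.186) and 5.52 (0.191) in KrasT. Among the treated KrasT tumours Pdx1 was highest in replicate 2, which had the lowest islet sum.

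Sox9 encodes the high-mobility-group factor that maintains pancreatic progenitors and ducts and also drives cartilage formation. It was at 21.4, 20.6 and 12.5 FPKM in untreated KrasT tumours and at 9.40, 23.5 and 14.8 in treated ones. The groups overlapped, and the log2 change was -0.23 (SE 0.388, 95% interval -1.15 to 0.69, limma adjusted p = 0.713). In MycT it was at 1.28 and 1.45 FPKM untreated and 12.4 and 6.63 treated. Both treated MycT tumours were above both untreated ones and the lower of them was below every KrasT tumour. The log2 change was 2.10 (SE 0.417, 95% interval 1.01 to 3.19) and did not pass within the MycT table (limma adjusted p = 0.0689). It passed with the spread estimated over all 10 libraries (limma adjusted p = 0.0172), as did 2463 of 12073 genes there, against 5 within the MycT table. The adjusted p ran from 0.0172 to 0.925 over the alternatives. The change was 2.15 without the unnumbered untreated library (limma adjusted p = 0.0782) and 2.50 without treated replicate 2 (0.256). The difference between models was -2.33 (SE 0.602), and limma gave an adjusted p of 0.0886. Over the 10 libraries Sox9 and Gata6 had an r of 0.925, the highest of the factor pairs, and over the 6 KrasT libraries 0.571.

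**Figure D3:**
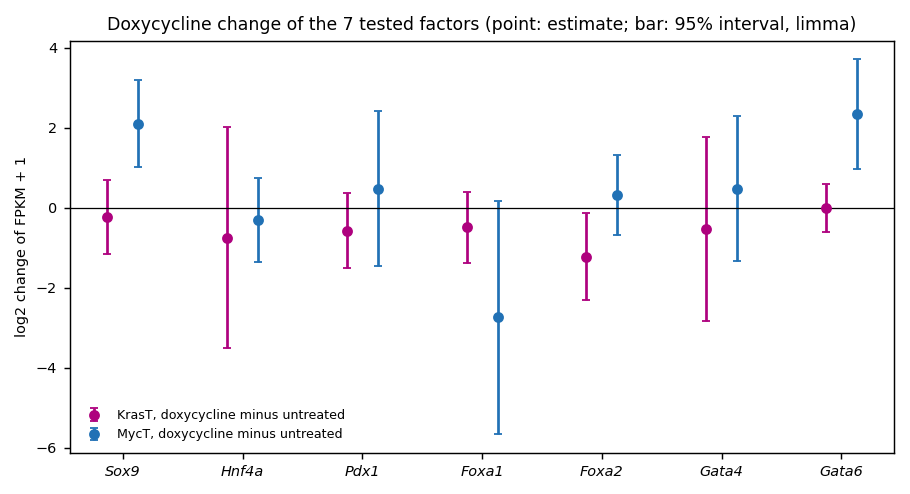
Doxycycline minus untreated difference in log2(FPKM + 1) for the 7 tested factors in KrasT and MycT; points are limma estimates and bars are 95% intervals. The intervals of Sox9 and Gata6 in MycT lie above 0, and that of Foxa2 in KrasT lies below it, before adjustment over all genes.

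Some markers of other cells were also higher in the treated MycT tumours. Summed fibroblast markers were at 35.0 and 413.9 FPKM in untreated and 1561 and 2266 in treated MycT tumours. Estimates were positive for 7 of 7 markers, and 0 were called by limma (6 at an unadjusted p under 0.05). Of all tested MycT genes, 31.9% were higher in both treated tumours than in both untreated ones. Treated replicate 2 had the higher fibroblast sum and the higher Gata6 (8.64 against 5.77 FPKM), but the lower Sox9 (6.63 against 12.4). Markers of mesothelium, the lining of the abdominal organs, were higher in both treated MycT tumours but did not rank them alike: Msln was at 299.2 and 67.2 FPKM in replicates 1 and 2, Wt1 at 3.40 and 18.0 and Upk3b at 1.43 and 23.9. Untreated MycT tumours had at most 6.81 FPKM of Msln, 0.803 of Wt1 and 0.159 of Upk3b. Msln, at 192.9 to 1295 FPKM, was also high in untreated KrasT tumours, where Upk3b was at most 0.300. The epithelial sums were 552.2 and 1877 untreated and 2063 and 1033 treated and overlapped. In KrasT, fibroblast markers rose in 7 of 7 (sums of 289.7 to 645.1 untreated and 3689 to 9053 treated). Over all tested genes 8.46% rose and 8.25% fell. Of the 7 markers, 2, 1, 4 and 1 were called when untreated replicate 2 or 3 or treated replicate 1 or 3 was left out. Over all 12696 genes, calls in these fits were 341, 113, 1004 and 120, against 2121 with all libraries. Gata6 and Sox9 in KrasT overlapped between groups beside these fibroblast sums. Of the 11 tested epithelial markers, Krt8 (log2 change -3.09, limma adjusted p = 0.0444) and Krt18 (-3.60, limma adjusted p = 0.0318) fell in KrasT and 0 rose. This count was 6 without untreated replicate 1, 1 without treated replicate 2 and 0 without any other single library. Over all genes, 4223 were called without untreated replicate 1 and 908 without treated replicate 2. When libraries were scaled to the epithelial genes, Sox9, Hnf4a, Pdx1, Foxa1, Gata4 and Gata6 had positive KrasT estimates from 0.20 to 1.19 and Foxa2 one of -0.01, while the median of all genes moved to 0.91. The part of these cell types in the results was not tested.

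Across the 4 groups the order of mean FPKM differed between factors. Sox9 and Pdx1 ran from untreated KrasT through treated KrasT and treated MycT to untreated MycT, and Foxa2 and Gata6 had that order too. Foxa1 ran from untreated MycT through treated MycT and untreated KrasT to treated KrasT. Hnf4a ran from untreated KrasT through treated KrasT and untreated MycT to treated MycT, and Gata4 from untreated KrasT through both MycT groups, treated first, to treated KrasT. Onecut1 was highest in treated KrasT, then treated MycT. Neighbours in an order were taken as apart where their libraries did not overlap and their means differed by more than the sum of their SDs, which held for 3 of 24 neighbour pairs. These were Sox9 in treated over untreated MycT, Gata6 in treated over untreated MycT, and Gata6 in treated KrasT over treated MycT. The last is across tables and without a test. The share of all genes that meet this rule was not computed. Non-overlap alone, with treated above untreated, held for 31.9% of tested MycT genes, so these pairs are not shown to be unusual.

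**Figure D4:**
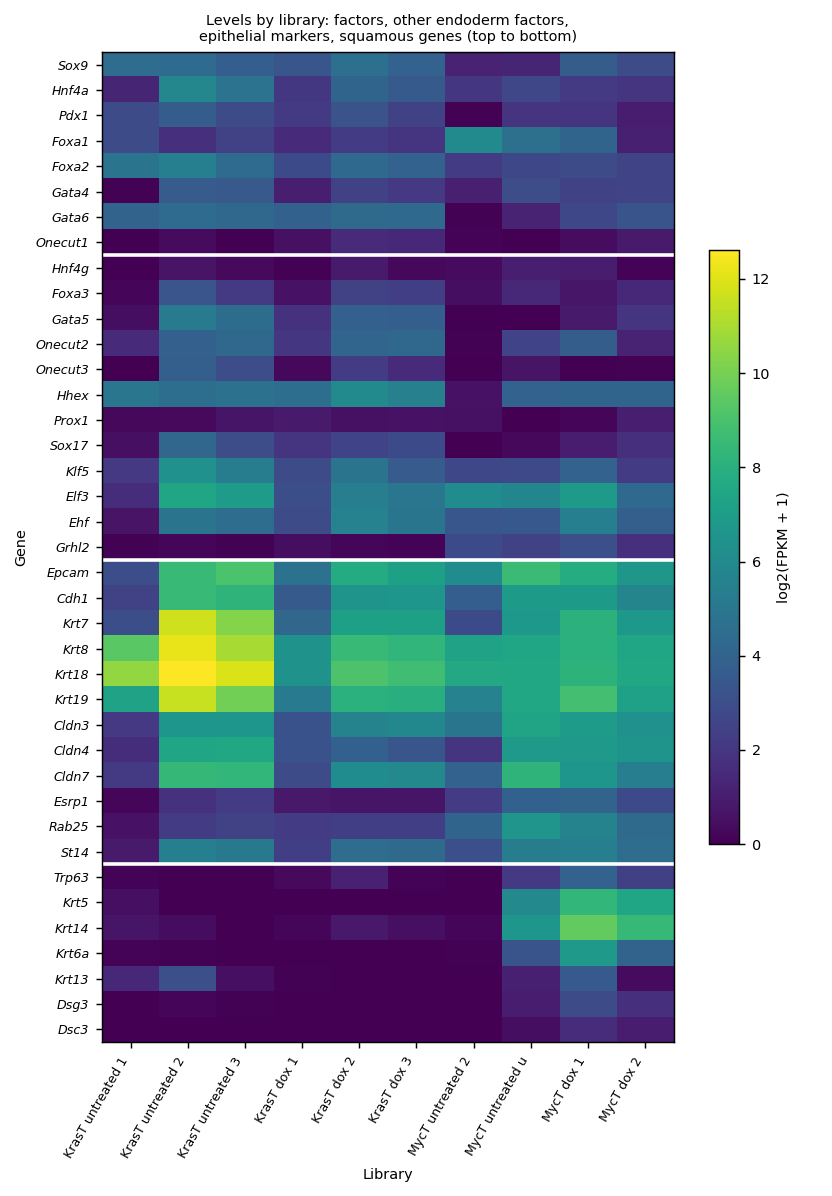
Level as log2(FPKM + 1) in the 10 tumours (columns) of the 8 factors, 12 other endoderm factors, 12 epithelial markers and 7 squamous genes (rows, top to bottom), with brighter cells for higher levels and u for the unnumbered library. Untreated KrasT replicate 1 is dark for Hnf4a, Gata4 and most epithelial markers but not for Sox9, Foxa2 or Gata6, and untreated MycT tumours are brighter than the KrasT ones for Foxa1.

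The number of factors at 1 FPKM or more was 6, 7 and 7 in untreated KrasT, 7, 8 and 8 in treated KrasT, 5 and 7 in untreated MycT and 7 and 7 in treated MycT. Their summed FPKM was 80.0, 165.9 and 98.8 in untreated and 39.5, 96.3 and 71.5 in treated KrasT tumours. In MycT the sums were 72.9 and 47.8 untreated and 52.2 and 31.2 treated. Groups overlapped for these sums in both models. As shares of that sum, which do not depend on the scaling between libraries, Foxa1 took 87.3% and 50.3% in untreated MycT tumours and 30.7% and 3.60% in treated ones, against 1.44% to 8.27% in KrasT. Sox9 took 1.75% and 3.03% in untreated and 23.7% and 21.3% in treated MycT tumours, and 12.4% to 26.8% in KrasT. Treated MycT tumours thus lay within the KrasT range for the Sox9 share. Gata6 took 19.2%, 12.2% and 17.9% in untreated and 35.7%, 20.6% and 26.6% in treated KrasT tumours, which did not overlap, although its FPKM did. Hnf4a took 34.1% and 27.1% in untreated KrasT replicates 2 and 3 and 1.80% in replicate 1, and 7.84% to 16.6% in treated KrasT tumours. Shares of 1 sum depend on each other, and no test was run on them. Ranked among all 23924 genes of its library, Foxa1 stood at percentiles 94.5 and 87.0 in untreated MycT tumours and at 52.3 to 69.2 in KrasT tumours. Gata6 stood at percentiles 80.3 to 85.8 in KrasT, 37.8 and 53.7 in untreated MycT and 67.9 and 74.5 in treated MycT tumours.

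Genes of most similar pattern were taken as the 3 with the highest Pearson r over the 10 libraries among 8716 candidates with a mean of at least 5 FPKM. They were Rnf135 (0.976), Twist1 (0.975) and Pink1 (0.952) for Sox9, and Creb3l1 (0.987), Kirrel (0.983) and Enc1 (0.979) for Gata6. For Hnf4a they were Vil1 (0.989), Hgfac (0.982) and Fut2 (0.974), and for Gata4 Cdh1 (0.972), Cldn7 (0.967) and Gpx2 (0.967). Cldn7 encodes an epithelial tight junction protein. For Pdx1 they were Dnajc10 (0.962), Frk (0.935) and Mmgt2 (0.934), and for Foxa2 Pnpla6 (0.958), Plcd3 (0.957) and Pja1 (0.950). For Foxa1 they were Cetn2 (0.941), Zic2 (0.941) and Ifitm1 (0.921). Libraries of 1 model share a table, and within the 6 KrasT libraries the r of Foxa1 with Zic2 was -0.06 and that of Gata6 with Kirrel -0.30. There Foxa1 with Ifitm1 had an r of 0.451 and Sox9 with Pink1 one of 0.483. Within the 4 MycT libraries Foxa2 with Pja1 had an r of -0.14. The other pairs had an r of at least 0.628 in KrasT and 0.665 in MycT.

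Other regulators of the same lineages were read from fixed lists. Of 12 other endoderm and duct factors, 9 were tested in KrasT and 0 called (limma; 0 at an unadjusted p under 0.05), with a median of -0.10. In MycT 8 were tested and 0 called (limma; 0 unadjusted), with a median of 0.22. Hhex, a liver and pancreas bud factor, was at 29.6, 22.3 and 24.9 FPKM in untreated and 22.5, 65.6 and 44.3 in treated KrasT tumours, with a log2 change of 0.65 (limma adjusted p = 0.302). In MycT it was at 0.516 FPKM in untreated replicate 2, 14.5 in the unnumbered library and 15.96 and 15.98 in the treated tumours, with a log2 change of 1.81 (limma adjusted p = 0.322). Ehf, an epithelial ETS factor, had log2 changes of 1.14 in KrasT (limma adjusted p = 0.55) and 1.19 in MycT (0.242). Of 4 acinar factors 0 were tested in KrasT and 1 in MycT, Bhlha15 (0.55, limma adjusted p = 0.703). Of 14 endocrine factors 1 was tested in each model and 0 called (limma; 0 unadjusted): Glis3 in KrasT (0.57, limma adjusted p = 0.452) and Isl1 in MycT (0.23, limma adjusted p = 0.80).

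Of 11 stomach and intestine factors, 5 were tested in KrasT, 1 rose and 1 fell (background 8.46% and 8.25%). Barx1, which acts in stomach mesenchyme, was at 0.311, 3.24 and 1.09 FPKM untreated and 25.3, 6.66 and 19.2 treated (log2 change 2.82, limma adjusted p = 0.0269). This call was lost without untreated replicate 2 or 3 or treated replicate 1 or 3 (adjusted p 0.053 to 0.108). Cdx2, the intestinal homeodomain factor, was at 11.4, 9.72 and 5.59 FPKM untreated and 1.16, 3.52 and 2.10 treated (log2 change -1.62, limma adjusted p = 0.0358). Unlike Hnf4a, it was not low in untreated replicate 1, and its call was lost without any single library other than that one (adjusted p 0.0531 to 0.132). In MycT 4 were tested and 0 called (limma; 1 unadjusted), with Klf4 at 2.01 (limma adjusted p = 0.136) and Barx1 at 2.20 (0.235).

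Of 13 other GATA and SOX genes, 9 were tested in KrasT, 1 rose and 2 fell (background 8.46% and 8.25%). Sox18, an endothelial factor, rose by 2.86 (limma adjusted p = 0.00753), from 1.22 to 2.74 FPKM untreated to 15.1 to 27.0 treated, beside 5 of 5 endothelial markers that rose. Without treated replicate 3 Sox18 was at an adjusted p of 0.051. The endothelial count was 0 of 5 without untreated replicate 3 or treated replicate 3, 1 without untreated replicate 2 and 3 without treated replicate 1. Calls over all genes in these fits were 113, 120, 341 and 1004, against 2121 with all libraries. Gata3 was at 5.20, 3.10 and 7.11 FPKM untreated and 0.585, 0.658 and 0.556 treated and fell by 1.89 (limma adjusted p = 0.0155). That call was lost without untreated or treated replicate 3 (0.0625 and 0.0789). Sox11, an embryonic neural and mesenchymal factor, fell by 1.84 (limma adjusted p = 0.0162), from 2.97 to 5.81 FPKM untreated to 0.161 to 0.715 treated. Its call was lost without untreated replicate 2 or 3 or treated replicate 3 (0.0541 to 0.0842). In MycT 7 were tested and 0 called (limma; 2 unadjusted), with Sox7 at 1.63 (limma adjusted p = 0.0783) and Sox13 at 1.08 (0.123).

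**Figure D5:**
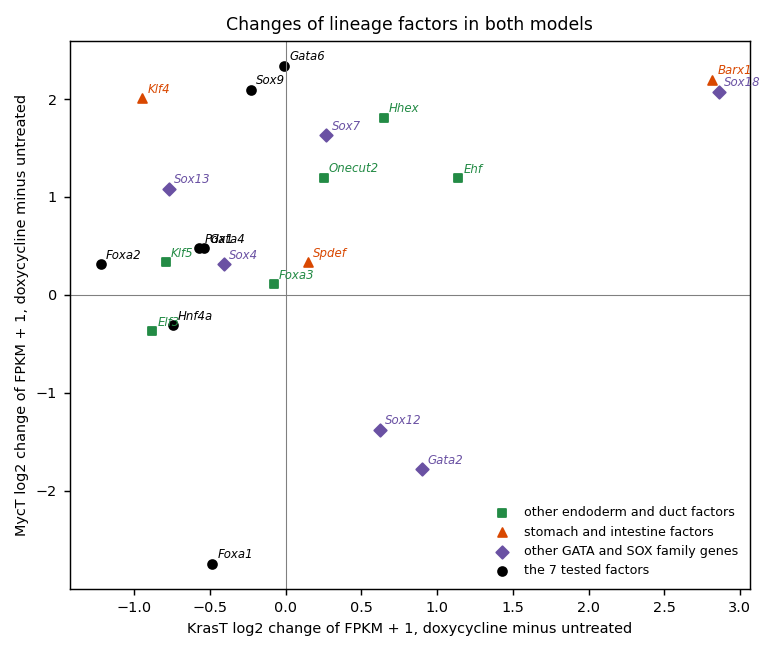
KrasT against MycT doxycycline log2 changes of the lineage factors tested in both models, in log2(FPKM + 1); black circles are the 7 tested factors and coloured symbols the genes of 3 other factor lists. Sox9 and Gata6 lie near 0 on the KrasT axis and above 2 on the MycT axis, and Foxa1 lies lowest on the MycT axis at -2.74.

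Genes of gastric and intestinal epithelium, and then genes that these factors are known to activate, were read in the same way. Of 15 gastric and intestinal epithelium genes, 10 were tested in KrasT and 0 called (limma; 3 unadjusted), with a median of -0.69. Cdh17, an intestinal cadherin controlled by CDX2, was at 1.37, 241.7 and 174.3 FPKM untreated and 0.812, 1.19 and 0.406 treated. Every treated tumour was below every untreated one, including replicate 1, but the log2 change of -4.71 (SE 1.66) missed the threshold (limma adjusted p = 0.0962, range over the alternatives 0.000857 to 0.839). Anxa10, a stomach annexin, had a change of -2.53 (limma adjusted p = 0.128). In MycT 11 were tested and 0 called (limma; 2 unadjusted), with 5 positive and 6 negative estimates and a median of -0.02. The gastric protease gene Ctse was at 0.0351 and 6.18 FPKM untreated and 58.6 and 16.9 treated there (log2 change 3.58, limma adjusted p = 0.108), and Tff2 had a change of 3.01 (0.148). The largest negative estimate was that of Tff3, named after its values were seen, at 11.8 FPKM in untreated replicate 2, 5997 in the unnumbered library and 62.2 and 1.77 in the treated tumours (-4.39, limma adjusted p = 0.393).

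Of 10 liver and gut targets of HNF4A and FOXA factors, 3 were tested in KrasT and 2 rose (background 8.46%). Ttr, the thyroid hormone carrier made in liver and islets, was at 0.805, 4.81 and 1.95 FPKM untreated and 41.7, 124.6 and 136.2 treated (log2 change 4.85, limma adjusted p = 0.00867). Alb was at 0.0565, 0.187 and 0.109 FPKM untreated and 6.90, 4.90 and 2.33 treated (log2 change 2.27, limma adjusted p = 0.0138). The Ttr call was lost without untreated or treated replicate 3 (0.0569 and 0.0519) and the Alb call without untreated replicate 2 or 3 (0.0536 and 0.0675). The islet marker sums of treated replicates 1 to 3 were 7529, 44.5 and 2542 FPKM, and their part in this result was not tested. In MycT 5 were tested and 0 called (limma; 0 unadjusted), with Apoa2 at -0.94 (limma adjusted p = 0.207) and Mttp at -0.61 (0.493). Of 7 beta cell targets of PDX1, 3 were tested in each model and 0 called (limma; 0 unadjusted in KrasT and 2 in MycT), with Ins2 at 5.98 (limma adjusted p = 0.103) and Ins1 at 4.22 (0.142) in MycT. Of 8 cartilage targets of SOX9, only Col11a1 was tested, with changes of 1.71 in KrasT (limma adjusted p = 0.0592) and 0.86 in MycT (0.248). Among the untested genes, named after their values were seen, Acan was at 0.936, 41.3 and 9.44 FPKM in untreated and 0.345, 0.0496 and 0.00619 in treated KrasT tumours. Hapln1 was at 14.2 and 0.254 FPKM in untreated and 0.0163 and 0.0445 in treated MycT tumours. Each was lower in every treated tumour of that model, a separation seen for 23.0% (KrasT) and 32.8% (MycT) of tested genes. Col11a1 in both models and the untested Col9a2 in KrasT (mean 0.0245 FPKM untreated, 0.437 treated) were higher in every treated tumour. Over all tested genes, 16.8% in KrasT and 31.9% in MycT were separated in that direction. Acan, Hapln1 and Col9a2 are not among the tested genes of those models, and the share among untested genes was not computed.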

How the data were processed

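RNA from frozen tumours was sequenced with an Illumina TruSeq RNA kit on a HiSeq2000, per the labels' protocols. The deposited values are FPKM, made by the authors with cutadapt and TopHat on mm9, per the submitters' processing notes. The FPKM program, annotation and strand setting, each, were not given in the sources used here. Each of 2 tables had 23951 rows, and 27 rows with symbols turned into dates were left out. Columns were matched by animal number, and 1 untreated MycT column only by its group. Replicates carry their own animal numbers, but separate tumours of origin are not stated, so p-values measure the spread between these samples.

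Changes were fitted on log2(FPKM + 1) by limma (version 3.58.1, run in R 4.3.3) with its moderated two-sided test, a mean-variance trend and Benjamini-Hochberg adjustment over all tested genes, within each table, and between models by the interaction term of 1 fit. Exact permutation could not go below 0.1 with 3 against 3 or 0.333 with 2 against 2. Named genes are the 8 factors and, per list and model, the called genes of largest change (at most 2 each way) or, with no call, the 2 of smallest p. The 10 gene lists and 10 marker lists (epithelial, acinar, islet, hepatocyte, mesothelial, fibroblast, endothelial, macrophage, adipocyte, skeletal muscle) and the factors were chosen with earlier results of these data known. Steps were tested on simulated data. Alternatives were a pseudocount of 0.1, no filter, a mean of at least 5 FPKM, median-ratio, quantile and epithelial scaling, library weights, a joint fit and leaving out each library. Figures used matplotlib 3.10.9 in Python 3.11.15. Promoter windows come from RefSeq (GRCm38.p6), with entries used for 5 of the 8 factors. No coordinates of the mm9 build are given. Some genes first placed on the lists are not reported here and were left out of them.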

Additional observations from a re-analysis of the deposited data

How the results depend on the processing

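No paired analysis was possible because every library has its own animal number and the labels number no replicates (the numbers used here only name libraries). Of 309 values for the 8 factors under the alternatives, 273 kept their direction and their side of the threshold or moved by less than the spread, 6 passed only under the alternative, 3 moved by more than the spread (Onecut1, untested) and 27 changed sign. None of the sign changes concerned a called value.

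In KrasT, 2121 genes were called by limma, against 1214 with no filter, 1340 at a mean of at least 5 FPKM, 1078 with quantile normalization, 5935 with library weights, 0 with epithelial scaling (664 at an unadjusted p under 0.05) and 113 to 4223 when 1 library was left out. The lowest counts were without untreated replicate 3 (113) and treated replicate 3 (120), and the highest was without untreated replicate 1. At a mean of at least 5 FPKM, 32.8% of calls were higher, against 50.6%. In MycT, 5 genes were called, against 0 with no filter (4373 unadjusted), 10 at a mean of at least 5 FPKM, 10 with library weights, 2463 in the joint fit and 0 to 0 when 1 library was left out (1984 to 4793 unadjusted). A lone library there is assumed to vary like the other group. For the difference between models, 29 genes were called, against 18 with a pseudocount of 0.1, 136 with no filter, 3 at a mean of at least 5 FPKM, 17 with quantile normalization, 0 with epithelial scaling (141 unadjusted), 1475 with library weights and 0 to 1522 when 1 library was left out. The cause of these differences was not tested.

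Epithelial scaling gave KrasT log2 changes of 0.93 for Sox9, 0.62 for Hnf4a, 0.46 for Pdx1, 0.20 for Foxa1, 0.99 for Gata4 and 1.19 for Gata6, MycT changes of -0.35 for Foxa2 and -0.34 for Isl1, and differences between models of 1.52 for Hnf4a, 0.0879 for Pdx1, 0.34 for Foxa2 and 1.01 for Gata4. It moved the median of all tested genes to 0.91 in KrasT, -0.65 in MycT and 1.68 for the difference. Gata6 in KrasT was at 0.0280 with median-ratio scaling, 0.214 with quantile normalization and 0.0243 with library weights. Quantile normalization gave -0.0739 for Pdx1 and -0.246 for Isl1 in MycT and 0.0623 for the difference of Hnf4a.

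With 1 library left out, KrasT estimates ran from -0.54 to 0.0741 for Sox9, from -2.09 to 0.19 for Hnf4a, from -1.70 to 0.0624 for Gata4, from -0.11 to 0.13 for Gata6 and from -0.21 to 1.91 for Ehf. MycT estimates ran from -0.66 to 0.0395 for Hnf4a, from -0.43 to 1.39 for Pdx1, from -0.47 to 1.43 for Gata4, from -0.61 to 1.71 for Bhlha15 and from -0.27 to 0.73 for Isl1, and the difference between models ran from -1.78 to 0.50 for Hnf4a. FPKM tables without read totals leave the counting error of low values unknown, which bears on Onecut1 and on Gata4, Gata6 and Pdx1 where they were under 0.1 FPKM. With 2 against 2 libraries, only 5 MycT genes passed, so a MycT factor that missed the threshold is not shown to be stable. For Foxa1 in MycT the range was -4.25 to -1.24, with both ends from leaving out a treated library.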

Other observations

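The untreated MycT tumours differed from each other in markers of squamous epithelium. The basal keratin gene Krt5 was listed at 0 in untreated replicate 2 and was at 60.1 FPKM in the unnumbered library, and at 323.9 and 172.0 in the treated tumours. Krt14 was at 0.185 and 99.0 FPKM untreated and 768.7 and 347.3 treated. All 7 squamous genes were tested in MycT with positive estimates (median 2.12) and 0 called (limma; 3 at an unadjusted p under 0.05), among them Dsg3 at 1.82 (limma adjusted p = 0.114) and Dsc3 at 1.06 (0.145). In KrasT 0 of 7 reached the level for testing. Sox2, a foregut and squamous factor, was at 24.4 and 17.0 FPKM in untreated MycT tumours and at 24.2 and 0 in treated ones. In KrasT it was at 26.4 FPKM in untreated replicate 1, the library low in Hnf4a and Gata4, and at 0.0306 and 0.0596 in the other untreated ones. Gata2, a blood and neural factor, was at 50.7 FPKM in untreated MycT replicate 2, the library with the highest Foxa1, and at 0.191 in the unnumbered one.

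Of the other marker lists, 2 of 3 tested mesothelial markers rose in KrasT: Wt1 by 2.42 (limma adjusted p = 0.0128) and Upk3b by 2.60 (0.0349). The third, Msln, had a negative estimate (-2.51, limma adjusted p = 0.147, unadjusted 0.0498), from a mean of 717.9 FPKM to 144.8. Among 8 tested acinar markers 0 were called in KrasT (limma; 2 unadjusted) and all 8 estimates were positive. Over all tested genes 8.46% rose. Of 7 islet markers 2 rose, of 2 tested hepatocyte markers 2 rose (the Ttr and Alb genes already given as HNF4A and FOXA targets), of 5 macrophage markers 2 rose, of 3 tested adipocyte markers 2 rose, and of 5 skeletal muscle markers 0 were called (limma; 2 unadjusted). In MycT 0 were called in any marker list, with between 0 and 6 per list at an unadjusted limma p under 0.05. Over all tested genes, 2121 were called in KrasT. Without untreated replicate 3 this was 113, without treated replicate 3 120 and without untreated replicate 2 341. It was 1004 and 908 without treated replicates 1 and 2, and 4223 without untreated replicate 1. The KrasT marker counts also changed when 1 library was left out. Without untreated replicate 3 they were 0 of 3 mesothelial, 1 of 7 islet, 0 of 2 hepatocyte, 0 of 5 macrophage and 0 of 3 adipocyte markers, and without treated replicate 3 they were 0, 1, 1, 0 and 0. Without untreated replicate 2 they were 0, 2, 1, 0 and 0, without treated replicate 1 they were 2, 2, 2, 0 and 1, and without treated replicate 2 they were 1, 7, 2, 1 and 0. Without untreated replicate 1 they were 2, 2, 2, 4 and 2. The calls not made in these fits are by limma at an adjusted p under 0.05.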
